A study of Caenorhabditis elegans with 2 samples.

Results

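The genes described here encode the V1 sector of the vacuolar proton pump, the V-ATPase, of Caenorhabditis elegans. They were chosen by name: vha-8, vha-9, vha-10, vha-11, vha-12, vha-13, vha-14 and vha-15, that is 8 of the 19973 protein-coding genes of the annotation, and all 8 were found. The choice was made with results of the same peak lists in view, so the counts below describe these genes and carry no test. Sites of the transcription factor NHR-6 were read at them from chromatin immunoprecipitation and sequencing (ChIP-seq) of whole second-stage (L2) larvae. The 2 biological replicates form 1 group. All animals were of strain OP90, with genotype unc-119(ed3) III; wgIs90, and both sexes were pooled. The labels give the insertion as one for nhr-6, name eGFP-nhr-6 as the protein assayed and enter nhr-6 as the antibody. The labels give neither the promoter of the transgene nor the cells that express it, and in whole animals the cell type behind a site cannot be told. Neither a second condition nor an input or untagged control was analysed here, so the part of a peak's signal that is not specific to NHR-6 was not tested.

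The V-ATPase pumps protons into lysosomes, endosomes and the extracellular space. Its soluble V1 sector splits ATP, and its membrane-bound V0 sector carries the protons across. Within V1, the A and B subunits form the catalytic ring, D and F the turning central shaft, E and G the outer stalks that hold the ring still, and C and H join V1 to V0. In the worm the pump acts in the intestine, the excretory cell and the epidermis, among other tissues. In the worm, the NR4A family of nuclear receptors is represented by NHR-6. Its mammalian relatives are known to bind the element AAAGGTCA as monomers.

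Of the 8 genes, 3 had an NHR-6 site of the authors' optimal peak set in the promoter, namely vha-8 (subunit E), vha-12 (B) and vha-15 (H). At vha-8 and vha-15 both replicates listed the site, and at vha-12 replicate 1 alone did. The sequences around their summits are shown because they are the strongest sites of the group, each with 100 bp on either side of the pooled summit, 5′ to 3′ along the gene, on build ce11 (WBcel235). Capitals mark GAGACG on either strand, the only one of the 6 elements searched that occurs in them. The lines are for vha-8 (chrIV:6790511-6790711, plus strand), vha-12 (chrX:4190620-4190820, plus strand) and vha-15 (chrX:2237520-2237720, plus strand).
vha-8: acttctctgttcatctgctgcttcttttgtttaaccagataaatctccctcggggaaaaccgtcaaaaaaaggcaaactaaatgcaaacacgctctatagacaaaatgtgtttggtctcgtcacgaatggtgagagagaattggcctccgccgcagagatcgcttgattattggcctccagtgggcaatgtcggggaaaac
vha-12: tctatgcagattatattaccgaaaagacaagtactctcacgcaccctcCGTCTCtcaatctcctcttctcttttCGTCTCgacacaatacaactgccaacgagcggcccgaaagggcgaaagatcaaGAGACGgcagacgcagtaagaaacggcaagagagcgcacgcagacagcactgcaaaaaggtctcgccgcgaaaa
vha-15: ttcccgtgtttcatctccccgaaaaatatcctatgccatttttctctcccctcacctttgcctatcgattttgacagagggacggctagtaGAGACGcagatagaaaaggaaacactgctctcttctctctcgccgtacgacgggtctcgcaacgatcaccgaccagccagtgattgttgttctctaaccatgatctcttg

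The vha-12 sequence held 3 copies of GAGACG, of which 2 lay within 50 bp of the summit, starting 26 bp before it on the minus strand and 27 bp after it on the plus strand. The vha-15 sequence held 1 copy, starting 9 bp before the summit, and the vha-8 sequence none. Within 50 bp of the summit GAGACG stood in 18.6% of all 1662 optimal peaks and in 18.9% of the 928 that lay in promoter windows, against 3.9% of 19973 windows of the same length directly upstream of annotated 5′ ends. The elements, GAGACG among them, were chosen with earlier results of these data known, so this difference is a description and carries no test. Windows at summits and upstream of 5′ ends also differ in base composition, with a median G and C content of 44.6% for all optimal summits, and 32.7% upstream of 5′ ends. The same window held 45.5% G and C at vha-8, 50.5% at vha-12 and 52.5% at vha-15. The other 5 elements searched were the NR4A element given above, its core AGGTCA, the E-box CACGTG, the GATA element TGATAA and the splice acceptor word TTTCAG. None was in any of the 3 printed sequences, on either strand. Within 50 bp of the summit, the NR4A element stood in 0.481% of all optimal peaks against 0.621% of the windows upstream of 5′ ends, and its core, which is counted wherever the whole element stands, in 2.89% against 3.12%. The shares were 5.84% against 2.47% for the E-box, 5.23% against 12.6% for the GATA element and 6.74% against 25.7% for the splice acceptor word. No other pair of the 6 words has one inside the other. A match is a description of letters and not a bound site.

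A site was read in a gene's promoter where the summit fell in a window that starts 1000 bp before an annotated 5′ end and stops 200 bp after it. Optimal sites are those of the set that the authors drew with the irreproducible discovery rate (IDR). The optimal set held 1662 peaks, and its lowest signal was 52.56. Its peaks are the 1662 highest of the pooled relaxed list, with the same summits and signals, so being in the set does not say that each replicate lists the site. The relaxed lists hold 30000 peaks each, weak candidates included, for the pooled reads and for each replicate. Signal is the authors' own value and is used only within a list, beside the rank of the peak in that list, where 1 is the highest. Read depth is unknown from peak lists.

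The share of genes with an optimal promoter summit was 3 of 8 for V1, against 1186 of 19973 or 5.94% of all protein-coding genes. Relaxed summits were much more common everywhere. The pooled relaxed list placed a summit at 7 of the 8 V1 genes, against 41.3% of all genes. Replicate 1 did so at the same 7 genes, against 40.1% of all genes, and replicate 2 at 5 of them (vha-8, vha-9, vha-10, vha-11 and vha-15), against 41.2%. With any of the 3 relaxed lists the count stayed at 7 of 8, against 58.4% of all genes. A pooled summit with a summit of both replicates within 100 bp stood at 4 V1 genes (vha-8, vha-9, vha-11 and vha-15), against 14.4% of all genes. Since a relaxed summit stood at so many genes, each site below is given with its ranks.

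**Figure D1:**
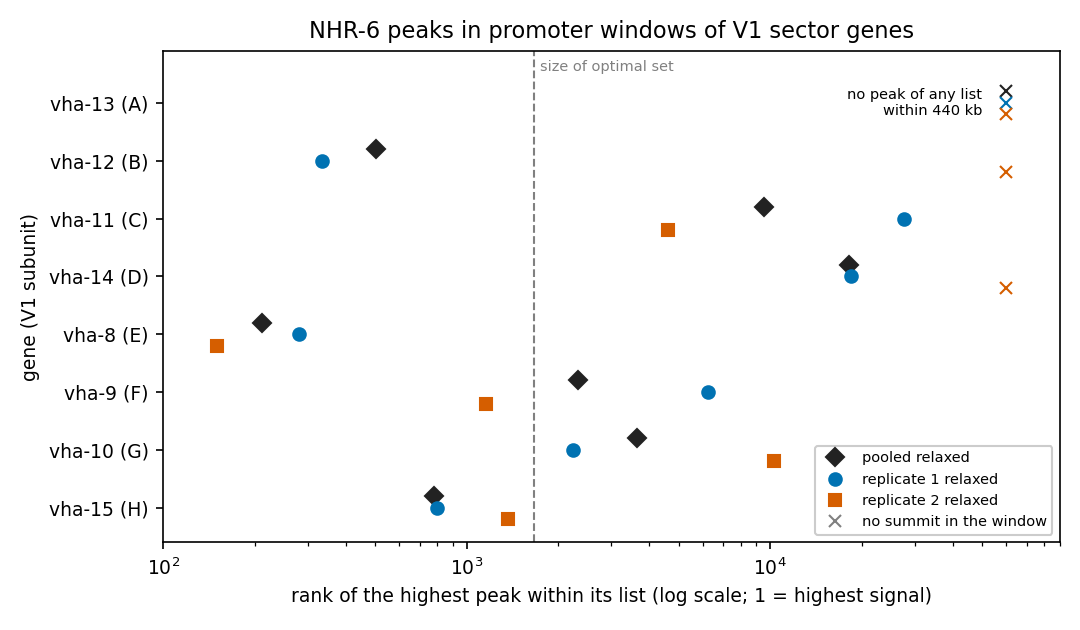
Rank of the highest peak in the promoter window of each V1 gene (rows, with the subunit letter) in the pooled list, replicate 1 and replicate 2 on a log axis, with 1 the highest signal; crosses mark lists with no summit there, and the dashed line is the size of the optimal set, 1662. The vha-8 and vha-15 points of all 3 lists lie left of the line, vha-12 is left of it in 2 lists and has a cross for replicate 2, and vha-13 has crosses only.

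The vha-8 promoter site was the strongest of the group. vha-8 encodes subunit E of the outer stalk (chromosome IV, 6791074 to 6792455, plus strand). Its peak (6790439 to 6790782) had a pooled signal of 149.4 at rank 211, a signal of 98.5 at rank 280 for replicate 1 and 46.17 at rank 151 for replicate 2. All 3 ranks were well inside the size of the optimal set. The pooled summit lay 463 bp upstream of the vha-8 5′ end, the replicate 2 summit at the same base and the replicate 1 summit 39 bp away. It is not a site of vha-8 alone: the intergenic stretch of 585 bp is shared with C17H12.2, a gene on the opposite strand whose 5′ end is only 123 bp from the summit. Given to the nearest 5′ end, the peak belongs to C17H12.2. Of the 928 optimal summits in promoter windows, 281 (30.3%) lay in those of more than 1 gene.

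The vha-15 site was supported by both replicates and belonged to that gene only. vha-15 encodes subunit H (X, 2237911 to 2240255, plus strand). Its peak (2237448 to 2237791) had a signal of 79.64 at rank 780 in the pooled list, 60.49 at rank 798 in replicate 1 and 18.2 at rank 1364 in replicate 2. The summits of the pooled list and of replicate 1 were on the same base, 291 bp upstream of the 5′ end, and that of replicate 2 was 20 bp away. The next gene on this side, T14F9.2, ends 1204 bp upstream of vha-15 on the same strand. This was the lowest of the 3 optimal promoter sites of the group. The highest promoter site of the group outside the set was that of vha-9, with a signal of 43.77 at rank 2326 of the pooled list, 664 ranks below the end of the set.

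At vha-12 the site rested on 1 replicate. vha-12 encodes the B subunit of the catalytic ring (X, 4191094 to 4193144, plus strand). Its peak (4190548 to 4190891) had a signal of 98.57 at rank 501 in the pooled list and 90.4 at rank 333 in replicate 1, with summits 374 and 357 bp upstream of the 5′ end. The relaxed list of replicate 2 held no summit in the window, and its nearest one was 791 bp from the pooled summit. The lowest signal in that list was 5.31, so a weaker candidate would not be listed. Of the 1662 optimal peaks, 236 (14.2%) likewise lacked a replicate 2 summit within 100 bp, and 30 of the 171 optimal promoter peaks on X did (17.5%). The absence was less usual for peaks as high in replicate 1: of the 333 highest peaks there, 22 (6.61%) lacked a summit in replicate 2 within that distance. Among the 236 optimal peaks with none, ordered by pooled signal, the vha-12 site came 14th. The intergenic space upstream of vha-12 is 4337 bp long, and the site was in the promoter window of no other gene.

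**Figure D2:**
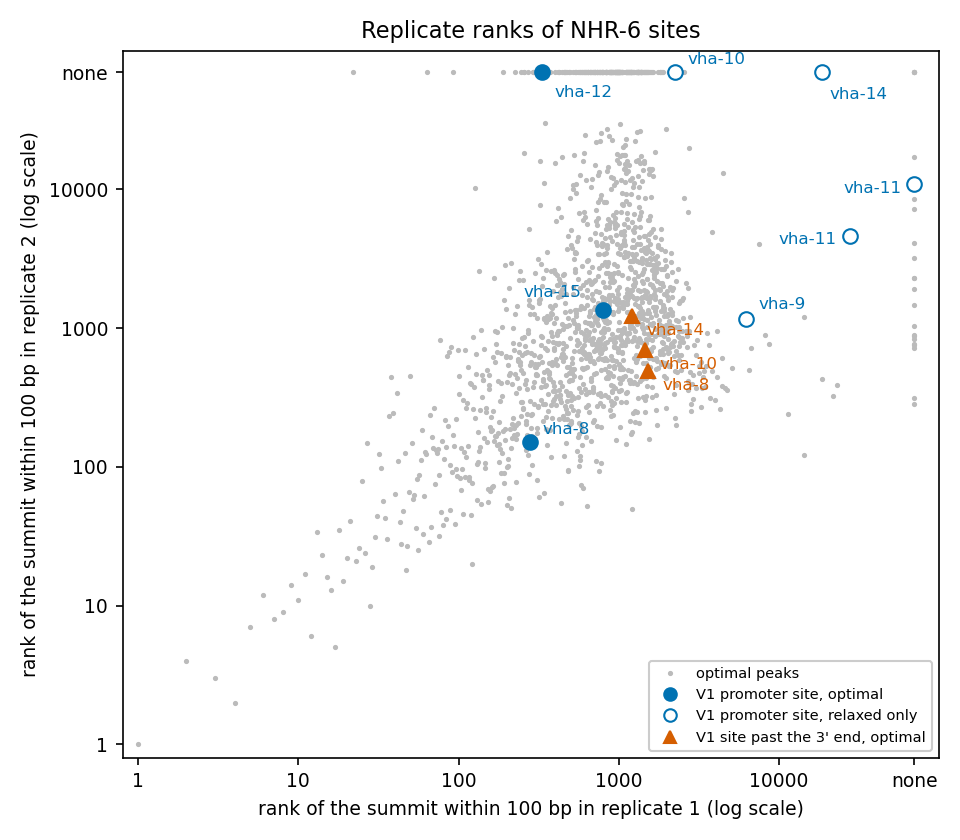
Rank in replicate 1 (x) against rank in replicate 2 (y), both on log axes, of the summit within 100 bp of each of the 1662 optimal peaks (grey) and of the V1 sites (blue circles for promoters, filled where optimal; orange triangles for optimal sites past a 3′ end); "none" marks a replicate with no such summit. The vha-8 and vha-15 promoter sites lie within the cloud, vha-12 lies on the upper edge with a rank of 333 in replicate 1 and none in replicate 2, the relaxed-only sites lie on or outside its edges, and the triangles lie at ranks 1218 to 1518 in replicate 1 and 492 to 1217 in replicate 2.

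At vha-9 the replicates differed the other way. vha-9 encodes subunit F of the central shaft (II, 10303050 to 10303713, minus strand). The pooled peak, with the signal given above, had a q-value of 0.0037. In replicate 1 the signal was 21.65 at rank 6256 with a q-value of 0.11, and in replicate 2 it was 19.42 at rank 1162 with a q-value of 0.00035. The peak thus ranked inside the size of the optimal set in replicate 2 only. The pooled summit lay 9 bp inside the annotated gene, in its first coding exon, whereas the summits of the 3 optimal sites lay upstream of the annotated 5′ ends. The annotated 5′ end of vha-9 falls on the atg after ttttccag in the sequence below, and where transcription starts was not measured. The window of clpp-1, the next gene downstream on the same strand, also held it, 862 bp upstream of that gene's 5′ end. Replicate 2 alone listed a second summit, 171 bp upstream of vha-9, with a signal of 12.76 at rank 3591. The sequence at the pooled summit is shown because it carries the same word as the vha-12 and vha-15 sites, with capitals marking GAGACG (chrII:10303654-10303754, minus strand, 5′ to 3′ along the gene).
vha-9: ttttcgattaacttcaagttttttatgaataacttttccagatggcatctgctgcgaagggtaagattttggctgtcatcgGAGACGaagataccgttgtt

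The promoter windows of vha-10, vha-11 and vha-14 held weak candidates only. Where transcription of these genes starts was not measured, so the windows need not be their promoters. For vha-10, which encodes the stalk subunit G, the pooled signal was 34.77 at rank 3631, and that of replicate 1 was 34.18 at rank 2249 (q-value 0.0029). Replicate 2 had a summit in the window as well, at rank 10268 with a signal of 8.955, but 156 bp from the pooled one. Replicate 1 alone listed a second summit, 97 bp inside vha-10 in a coding exon, at rank 22269. The pooled summit fell in an intron of trpp-8, the next gene upstream on the same strand, which ends 103 bp before vha-10 begins. vha-11 encodes subunit C and lies on IV (2307815 to 2314567, minus strand), 892 bp downstream of vha-3, a gene of the V0 proton ring on the same strand. In the space between them, the summit 811 bp upstream of vha-11 was at rank 9545 among pooled peaks, 27642 for replicate 1 and 4624 for replicate 2. The one 355 bp upstream was at rank 14193 in the pooled list and 10882 in replicate 2, with none in replicate 1. For vha-14, which encodes subunit D of the central shaft (III, 9508100 to 9509757, plus strand), the pooled summit 67 bp upstream was at rank 18215, that of replicate 1 at rank 18486, and replicate 2 had none in the window. Replicate 1 alone listed a second summit, 466 bp upstream of vha-14, at rank 24451. In none of the 3 genes did a promoter summit reach the size of the optimal set in any list.

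For vha-13, the gene of the catalytic A subunit (V, 14351709 to 14354422, plus strand), these lists give no measurement. None of the relaxed lists holds a summit between 11929184 and 14800271 of chromosome V. This stretch of 2871 kb is the longest without a summit in the genome and covers 715 protein-coding genes, whereas the median gap between summits of the 3 lists together was 536 bp. The 3 other empty stretches of at least 100 kb are on V too and range from 176.6 to 363 kb. Its cause was not tested. Leaving out the 940 genes in the 4 stretches, a comparison added after these values were seen, 3 of 7 V1 genes had an optimal promoter summit, against 6.23% of the other 19033 genes.

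Optimal sites also stood just past the 3′ ends of V1 genes, a pattern that was noticed in these lists and then counted. Within 500 bp past the annotated end, 3 of the 8 genes had an optimal summit, namely vha-8, vha-10 and vha-14, against 1.33% of all protein-coding genes. With the pooled relaxed list 6 of the 8 V1 genes did, and so did 8 of 12 V0 genes, against 18.3% of all genes. Both replicates held each of the 3 optimal sites. At vha-14 the peak (III, 9509774 to 9510117) lay 189 bp past the gene, with a signal of 70.62 at rank 968 in the pooled list, 47.72 at rank 1218 in replicate 1 and 19.1 at rank 1217 in replicate 2. At vha-8 the peak (IV, 6792385 to 6792728) lay 102 bp past the gene, with a signal of 71.08 at rank 957 in the pooled list, 42.2 at rank 1518 in replicate 1 and 28.86 at rank 492 in replicate 2. In the pooled list these 2 genes thus had a stronger site past the end than vha-9, vha-10, vha-11 or vha-14 had in the promoter, and neither site was in the promoter window of another protein-coding gene. The nearest 5′ end to the vha-14 site was that of F55H2.5, 1524 bp further on. A small nucleolar RNA gene, C17H12.36, lay 417 bp from the vha-8 site.

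The vha-14 sequence past the end is shown because it also carries the word of the vha-12 and vha-15 promoters, in capitals, starting 18 bp after the summit (chrIII:9509896-9509996, plus strand, 5′ to 3′ along vha-14). Over the 8 pooled promoter sites and the 3 optimal sites past an end, 4 of 11 had the word within 50 bp of the summit: the promoter sites of vha-9, vha-12 and vha-15 and this one. The share was 18.6% over all optimal peaks. Some of the 11 sites are relaxed only, and no share was counted for such peaks. The vha-10 promoter site had it between 50 and 100 bp from the summit, a distance at which no share over all peaks was counted. The promoter sites of vha-8, vha-11 (both) and vha-14 and the sites past the ends of vha-8 and vha-10 had none within 100 bp.
vha-14: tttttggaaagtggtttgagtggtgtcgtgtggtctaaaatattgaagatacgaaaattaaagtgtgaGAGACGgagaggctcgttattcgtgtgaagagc

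The vha-10 site past the 3′ end is at the same time a promoter site of the next gene. vha-10 lies on chromosome I (5609341 to 5610270, minus strand). The peak (5608893 to 5609236) had its pooled summit 276 bp past vha-10 and 224 bp upstream of ubl-5, the gene of a small ubiquitin-like protein on the same strand. Its signal was 67.47 at rank 1044 in the pooled list, 43.19 at rank 1452 in replicate 1 and 24.57 at rank 693 in replicate 2. Weaker pooled summits past the end stood at vha-9 (rank 2509, also 63 bp inside clpp-1), vha-12 (rank 7121, with none of replicate 2) and vha-15 (rank 20570). No optimal summit lay in the body of any V1 gene.

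**Figure D3:**
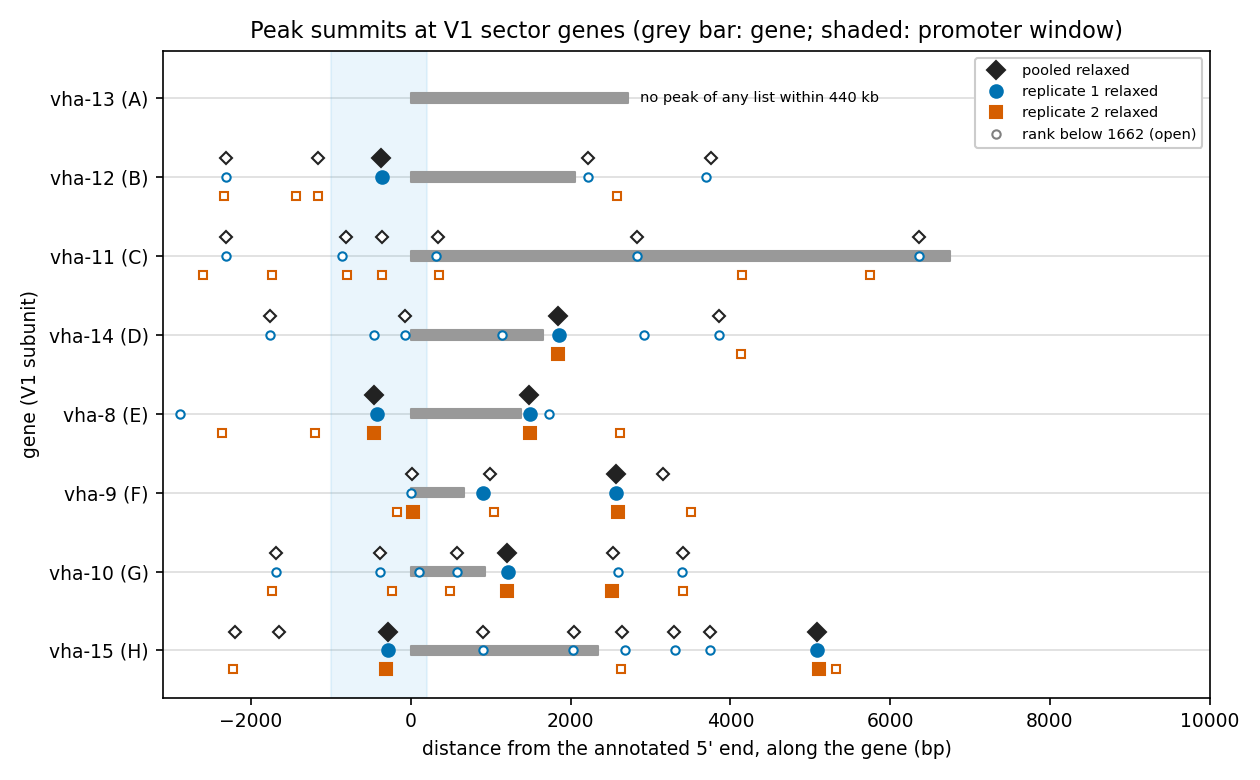
Summits of the pooled list, replicate 1 and replicate 2 around the V1 genes, by distance in bp from the annotated 5′ end along each gene (grey bar, the gene; shaded, the promoter window); filled symbols rank among the 1662 highest of their list and open ones below. Filled symbols stand upstream of vha-8, vha-12 and vha-15 and just past the ends of vha-8, vha-10 and vha-14. At vha-9, replicate 2 alone has a filled symbol in the promoter. Replicate 1 alone has one just past the vha-9 end, 908 bp from the 5′ end. The further filled symbols downstream lie next to other genes, and vha-13 has none of either kind.

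Genes that work with V1 were counted for comparison. Of the 12 V0 genes, 1 (8.33%) had an optimal promoter summit, against 5.94% of all protein-coding genes. It was vha-1, which encodes a subunit of the proton ring. Its signal was 68.5 at rank 1017 in the pooled list, 49.88 at rank 1127 in replicate 1 and 16.32 at rank 1796 in replicate 2. The summit lay 373 bp upstream and also in the window of sqv-3. The V0 share for pooled summits with both replicates was also 1 of 12, against 14.4% of all genes. With any of the 3 relaxed lists, 11 of the 12 V0 genes (91.7%) had a promoter summit, against 58.4% of all genes. The only V0 gene with an optimal summit within 500 bp past its end was vha-4, against 1.33% of all genes. With the pooled relaxed list 8 of the 12 V0 genes (66.7%) had a summit there, against 18.3% of all genes. V1 and V0 shares were not tested against each other. Neither vha-18, a second H subunit gene, nor spe-5, a second B subunit gene, had an optimal summit. Both genes found of the assembly list had one in the promoter, against 5.94% of all genes, and with 2 genes this is a description only. They were rbc-2 (signal 128.2, rank 280) and rbc-1 (signal 57.61, rank 1407). The rbc-2 summit also lay in the windows of ndua-8 and Y54F10AM.15. The 2 rbc genes are relatives of the mammalian rabconnectins, which help V1 and V0 assemble. The other 2 symbols of that list were not matched.

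Genes of the lysosome, the organelle the pump acidifies, were counted too. Of 20, 2 (10%) had an optimal promoter summit, against the 5.94% of all genes. One was hlh-30, the TFEB-related regulator of lysosomal genes, with a signal of 78.08 at rank 813 among pooled peaks, rank 662 for replicate 1 and rank 1286 for replicate 2. The other was glo-4, which acts in gut granule formation, with a signal of 120.1 at rank 322. Of 11 genes of nutrient sensing on the lysosome, where the V-ATPase takes part in TORC1 control, 2 (18.2%) had one. These were rheb-1, a GTPase that activates TORC1 (signal 124.2, rank 295), and flcn-1, the folliculin gene (signal 90.71, rank 590). The rheb-1 summit was also in the window of spk-1 and the flcn-1 summit in that of F22D3.4. A pooled promoter summit with both replicates within 100 bp stood at 5 of the 11 nutrient sensing genes (45.5%). It stood at 4 of the 20 lysosome genes (20%), against 14.4% of all genes. With any of the 3 relaxed lists, 8 of the 11 and 16 of the 20 had a promoter summit, against 58.4% of all genes. Over all 1186 genes with an optimal promoter summit, the median rank of the highest one was 698 (quartiles 330 and 1157). Its median position was 250 bp upstream of the 5′ end (quartiles -434 and -136 bp, upstream being negative). The V1 promoter sites, at ranks 211, 501 and 780, were all further upstream than that median. Those of vha-12 and vha-15 lay between the quartiles, and that of vha-8 lay beyond them.

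**Figure D4:**
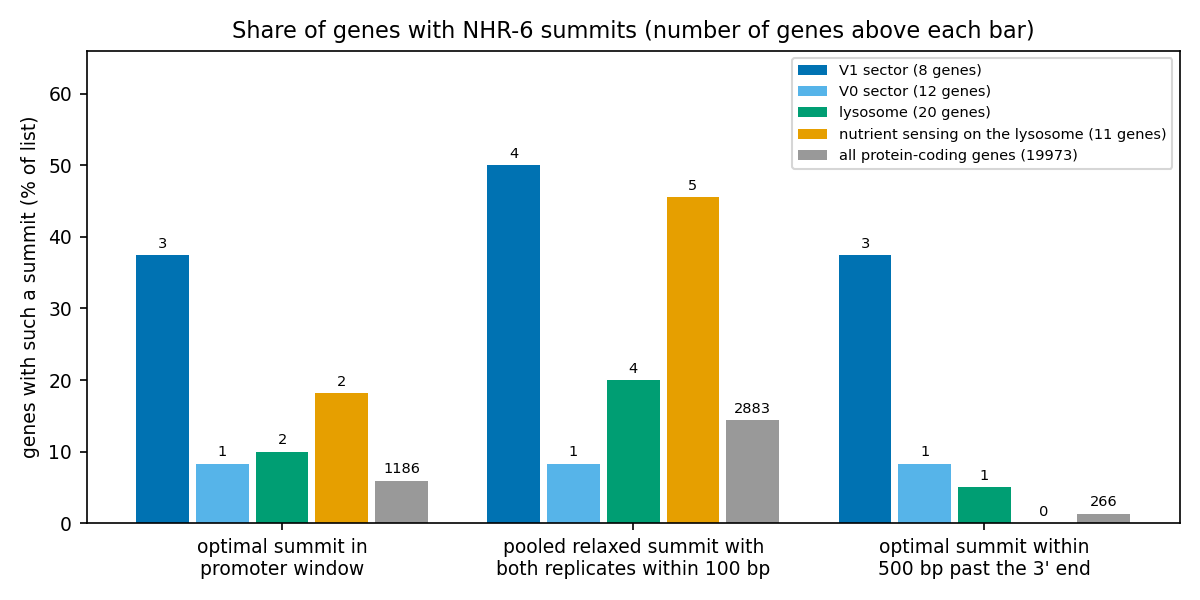
Percentage of each gene list with an optimal promoter summit, with a pooled relaxed promoter summit that both replicates hold within 100 bp, and with an optimal summit within 500 bp past the 3′ end; numbers above the bars are genes, and grey bars are all 19973 protein-coding genes. V1 stands at 3, 4 and 3 of 8 genes, V0 at 1, 1 and 1 of 12, and all genes at 5.94%, 14.4% and 1.33%. The lysosome list stands at 2, 4 and 1 of 20 genes, and nutrient sensing at 2, 5 and 0 of 11.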

How the data were processed

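Binding of eGFP-NHR-6 was measured by ChIP-seq in 2 samples, the biological replicates numbered 1 and 2 in the labels. Per the file lists deposited with the samples, the authors made each relaxed peak list from 1 or both alignments together with a further file whose nature is not described, and the optimal set from these with the IDR. The sources used here give no aligner, peak caller or IDR threshold. The deposited lists give a signal per peak, whose scaling is not stated, a q-value as its −log10, and a summit position. Peaks of the pooled list were 344 bp wide in 99.6% of cases. The lists on ce11 were used with Ensembl release 115 gene models (WBcel235), and sequence was read from the RefSeq genome of that assembly, whose chromosomes hold every gene and peak end. Lists on ce10 were not used here.

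A summit could lie in the windows of several genes, and every transcript's 5′ end counted. Support by a replicate meant a summit within 100 bp of the pooled one. Named were all 8 members with all their sites, genes sharing or next to those sites, and listed genes with an optimal summit. hlh-30 is named by its highest summit. Members, lists and elements were chosen with earlier results of these data known, and windows past the 3′ end after these values were seen. No test was made. Window assignment was checked on planted summits. Python 3.11.15 and pandas 2.3.3 were used.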

Additional observations from a re-analysis of the deposited data

How the results depend on the processing

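The V1 count of 3 genes with an optimal promoter summit stayed at 2 or 3 under all 9 alternatives, but not always with the same genes. All protein-coding genes with such a summit numbered 685 to 1583 under them, against 1186. Each summit given only to its nearest 5′ end left 2, vha-12 and vha-15, against 879 of all protein-coding genes. With the 1662 highest peaks of 1 replicate in place of the optimal set the count was 3 either way: vha-8, vha-9 and vha-15 without replicate 1, and vha-8, vha-12 and vha-15 without replicate 2. The V0 count of 1 became 3 (vha-1, vha-2 and unc-32) with the window from 2000 bp upstream, where all genes numbered 1583. It became 0 among the 831 highest peaks of the optimal set. Among those 831 all protein-coding genes with a promoter summit fell to 685, against 1186, and V1 genes with one past the 3′ end to 0, against 3, while V1 promoters kept vha-8, vha-12 and vha-15. Without replicate 1 the V0 gene was unc-32 in place of vha-1. V1 genes with a relaxed site in both replicates numbered 4, and 2 (vha-8 and vha-15) where each replicate's peak had a q-value of 0.01 or less or was among its 1662 highest. V1 genes with a pooled relaxed summit numbered 7, and 4 (vha-8, vha-9, vha-12 and vha-15) at that q-value. All genes were not counted at these stricter relaxed settings. Leaving out replicate 1 gave 5 V1 genes with a relaxed summit, against 41.2% of all genes, and leaving out replicate 2 gave 7, against 40.1%. Among the 1662 highest peaks of the replicate kept, 1190 and 1131 genes in all had a promoter summit. V1 genes with a site past the 3′ end then numbered 3 to 4, vha-9 being the fourth without replicate 2. That vha-9 site was at rank 1612 in replicate 1 and at rank 18574 in replicate 2. Sites past the 3′ end were not counted over all genes in these settings or among the 831 highest peaks. No paired analysis was possible because both samples form 1 group. The number of replicates and the unknown read depth limit what a missing peak shows.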

Other observations

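Among 1070 genes whose highest optimal promoter summit had a match in both replicates, the genes whose ranks in the 3 lists were nearest to those of vha-8 were cmtr-1 (ranks 221 among pooled peaks, 269 for replicate 1 and 171 for replicate 2) and alg-5 with his-67, which share a summit (ranks 233, 286 and 166). Nearest to vha-15 were C37A2.7 with pqn-20, which share a summit (ranks 845, 819 and 1449), and nmat-1 (ranks 761, 799 and 1185). Likeness was the summed difference of log10 ranks, and the pooled list holds the reads of both replicates.

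The highest optimal peak within 3000 bp of a V1 gene lay in none of their promoter windows. It was intergenic on X (2242903 to 2243070), 376 bp upstream of the ribosomal protein gene rpl-11.2, with a signal of 265.4 at rank 53 of the pooled list. The optimal peak next to vha-9 (II, 10300978 to 10301321), with a signal of 80.39 at rank 766, had its summit in an annotated intron of clpp-1 and lay 66 bp upstream of a 5′ end of mdt-22 and 70 bp upstream of the nearest 5′ end of clpp-1.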
